A study of Mus musculus with 4 samples.

Results

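Genes that build and switch on motile cilia were examined in whole brains of mouse embryos with a conditional double knockout of the transcription factors Sox4 and Sox11. The members were chosen by gene symbol alone, without any measured value. They were the axonemal dynein heavy chains (Dnah), intermediate chains (Dnaic) and light intermediate chain (Dnali1), the radial spoke (Rsph), tektin (Tekt), Cfap and Drc genes, Spag6, Spag6l, Spag16 and Spag17, and the transcription factors Foxj1 and Rfx. This gave 96 probe sets for 59 genes, of 45037 probe sets and 18193 genes with a symbol of their own on the array. A probe set that matched Rsph3a and Rsph3b together was left out because it named more than 1 gene.

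Expression was measured on 4 Affymetrix arrays. The embryos were taken at day 14.5 and had a mixed background of 129SvJ/C57Bl/6J. The 2 control arrays came from embryos with Sox4 flox/flox and Sox11 flox/flox alleles and no Cre. The 2 double-knockout arrays came from embryos with the same floxed alleles and Brn4::Cre, a Cre recombinase named for the gene Brn4 (Pou3f4), so the presence of Cre and the loss of the SoxC genes cannot be told apart. The series title names the spinal cord, whereas the sample labels and the design text name the brain, which is followed here. The arrays are labelled as biological replicates, but the labels give neither the sex of the embryos nor whether embryos were pooled, so p-values measure only the spread between these arrays.

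Motile cilia are built on an axoneme of outer microtubule pairs around a central pair. Outer and inner dynein arms drive the beat, the nexin-dynein regulatory complex and the radial spokes control it, and tektins and many Cfap proteins lie in or on the microtubules. Foxj1 and several Rfx factors switch on these genes, Rfx factors through a site known as the X-box. In the brain, motile cilia are carried by ependymal cells, which mature around and after birth, and by the choroid plexus epithelium, whereas progenitors and neurons carry a primary cilium that does not beat.

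The arrays were alike in scale, with median signals of 262 to 286.7. Of the 6 Sox11 probe sets all fell, with log2 changes of -3.18 to -1.19, and the signal that remained in the knockouts was 972.6 to 10753 over these probe sets. Of 8 Sox4 probe sets 4 fell, 1 rose (log2 change 1.83), 1 did not pass (0.09) and 2 were too dim to test, and which of them lie in the deleted part is unknown. The labelled tissue carried its markers: the neuronal gene Tubb3 read 11984.6 to 20780.4, the radial glial gene Fabp7 30857.5 to 33886.9 and the choroid plexus gene Ttr 38107.5 to 43852.1 over the 4 arrays. In RNA of a whole brain, fewer cells of a type and less RNA per cell cannot be told apart.

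The upstream DNA of the members was searched because Rfx and Foxj1 act through known motifs, and RefSeq windows from 250 bases before to 50 after the start site (GRCm38.p6) were at hand for 50 of the 59 genes (57 windows). The core of the Rfx site, GTTGCC on either strand, stood in the windows of 15 of 50 member genes (30%), against 14.1% of 27025 genes with a window. The forkhead motif TGTTTAC stood in 8% of member genes and 4.05% of all, and the Sox motif AACAAAG in 8% and 6.68%. The full palindrome, GTTNCC and GGNAAC with 2 bases between, occurred in 1 member gene, Cfap298 (2%), against 0.529% of all genes. A looser form, GTTGC facing GCAAC with 3 bases between, was added after the windows had been seen. It occurred in 4 of 50 member genes (8%), against 0.252% of all genes. The form with 4 bases between, added likewise, occurred in Cfap298 alone (2%, against 0.192%). Both forms were picked from these same windows, so their shares cannot serve as evidence of an excess. These 4 genes and Cfap298 are shown because they carry the facing copies that mark an X-box, here in capitals, on the strand of the gene, 5′ to 3′, from RefSeq.
Dnah6 (chr6:73221632-73221691, minus strand): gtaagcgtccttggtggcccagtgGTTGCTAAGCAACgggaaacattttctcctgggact
Dnaic2 (chr11:114727359-114727418, plus strand): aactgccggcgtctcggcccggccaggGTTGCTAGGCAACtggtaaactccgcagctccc
Tekt2 (chr4:126325689-126325748, minus strand): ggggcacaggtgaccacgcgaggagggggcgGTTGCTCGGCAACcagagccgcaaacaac
Tekt4 (chr17:25471530-25471589, plus strand): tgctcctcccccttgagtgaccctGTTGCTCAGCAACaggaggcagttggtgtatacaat
Cfap298 (chr16:90935000-90935059, minus strand): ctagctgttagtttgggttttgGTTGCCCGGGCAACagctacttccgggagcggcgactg
The first 4 stretches cover the 60 bases just before a start site, and that of Cfap298 covers bases -210 to -151. Of the 10 genes that rose in the knockout, 8 had a window, and 1 of these 8, Dnaic2, held GTTGCC. Of the 19 genes with a window that were tested and did not pass, 10 held it. A match describes the letters only.

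Many axonemal genes were dim at this age. The median probe set of the group had a mean signal of 119, against 272 over all probe sets, and 39 of the 96 (33 of the 59 genes) lay above the signal filter and were tested. Of these 39 probe sets, 10 rose, 1 fell and 28 did not pass (limma, adjusted p under 0.05). Over all 27022 probe sets tested, 11.7% rose and 11.6% fell. The median log2 change was 0.21 over the 39 and -0.01 over all tested. Without knockout 2 the members' median was 0.09, with 25 of 38 changes above 0 in place of 31 of 39, and the median of all stayed at -0.01. The 39 passed a filter on the mean of all arrays, and 2 of the 10 that rose, Dnah6 and Dnaic2, had control means under the filter's signal of 154.6 and passed through their knockout signals, so the count over the 39 supports nothing about the whole group. With all 96 probe sets in the fit and no filter, 6 rose (6.25%) and 0 fell, against 4.82% and 4.77% of all 45037, so the share that rose was near the background. Without the variance trend 7 of the 39 rose and 0 fell, against 5.44% and 6.08% of all tested. The 6 that rose without the filter were Dnah6, Rsph1, Rsph9, Cfap36, Cfap54 and Rfx5.

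The direction of the unfiltered changes was uneven. Of the 96 probe sets, 75% had a positive log2 change in the fit without a filter, against 48.4% of all probe sets. Both knockout arrays read above both controls at 31 of the 96 (32.3%), against 25.4% of all probe sets. Both read below at 11 (11.5%), against 27.1%, and at 54 the groups overlapped. Among the 39 tested, 21 lay above (background 31.3%), 5 below (background 31.6%) and 13 overlapped. No test of these shares was made, since probe sets of related genes are not independent samples.

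**Figure D1:**
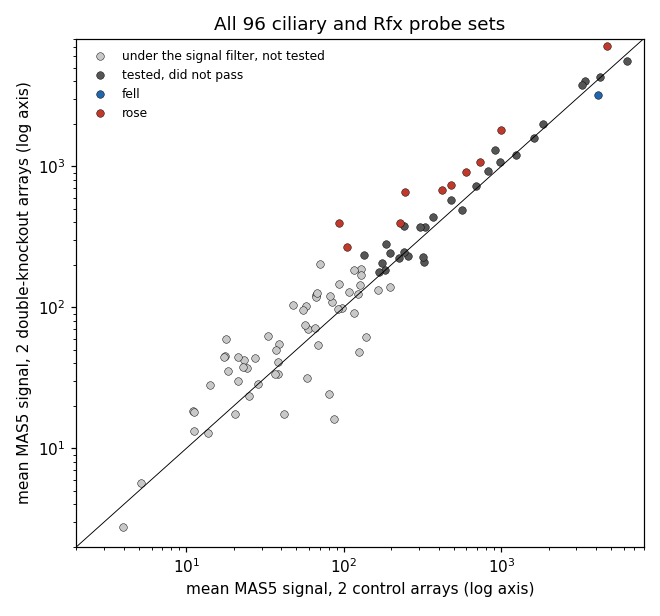
Mean MAS5 signal of the 2 control arrays (x axis, log scale) against that of the 2 double-knockout arrays (y axis, log scale) for each of the 96 probe sets, with the line of equal signal. Points in red rose, the point in blue fell, dark grey points were tested and did not pass, and light grey points lay under the signal filter. The 3 red points farthest above the line are Dnah6, Rsph1 and Dnaic2.

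**Figure D2:**
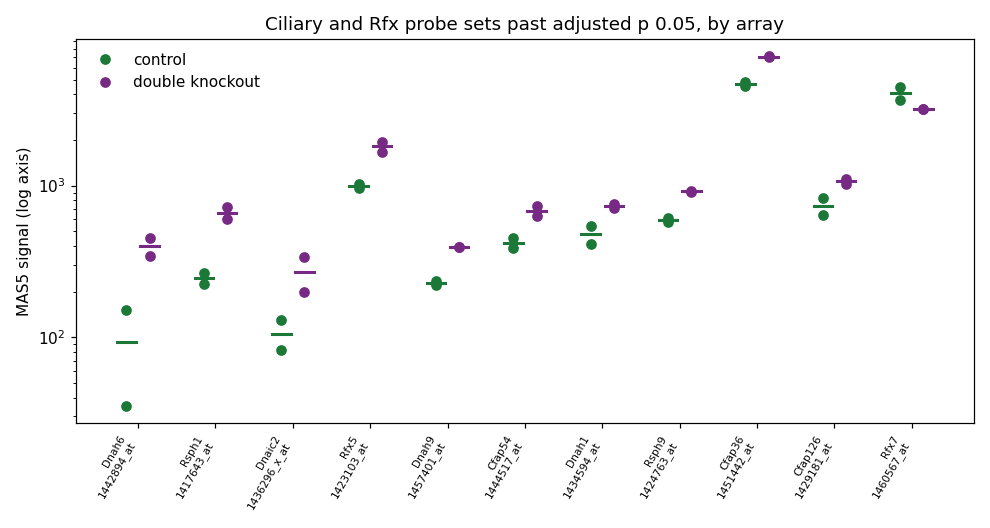
MAS5 signal (log axis) on each array for the 11 probe sets past the threshold, ordered by log2 change, with controls in green, double knockouts in purple and a bar at each group mean. Dnah6 has the widest spread between controls, 150.8 and 35.2. At none of the 11 do the groups overlap, but the 11 were picked by their change on these same arrays. Over all tested probe sets, both knockouts lay above both controls at 31.3% and below at 31.6%.

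Among the motor proteins, the dynein heavy chains Dnah6, Dnah9 and Dnah1 rose. Dnah6, a heavy chain of the inner arms, read 150.8 and 35.2 in controls and 342.1 and 452.3 in knockouts. Both knockout arrays lay above both controls, and the controls differed from each other by more than the knockouts did on a log scale. The log2 change was 2.15 ± 0.46 (SE; 95% interval 1.12 to 3.17; limma adjusted p = 0.00847). It was 3.0 without control 1 and 1.3 without control 2, and the adjusted p was 0.07 in limma without a variance trend. With either knockout array left out, Dnah6 fell below the signal filter and was not tested. The promoter stretch with GTTGCTAAGCAAC, given above, belongs to this gene.

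Dnah9, a heavy chain of the outer arms, read 233.8 and 222 in controls and 392.6 and 393.1 in knockouts. The arrays of each group lay close together and the groups were separate (log2 change 0.75 ± 0.20, limma adjusted p = 0.0227). Dnah1, another inner-arm heavy chain, read 412.3 and 541.4 in controls and 709.8 and 756.3 in knockouts, with the controls below both knockouts (0.62 ± 0.17, limma adjusted p = 0.0268). Leaving out knockout 1 (0.75, adjusted p = 0.116) ended the Dnah9 call, and so did leaving out knockout 2 (0.74, adjusted p = 0.111). The Dnah1 call ended when control 1 (0.43, adjusted p = 0.136) or either knockout array was left out (0.66, adjusted p = 0.111, without knockout 1 and 0.57, adjusted p = 0.153, without knockout 2). It also ended without the variance trend (adjusted p = 0.0711) and without the filter (adjusted p = 0.0732), and that of Dnah9 without the filter (adjusted p = 0.0712). Dnah2, an inner-arm heavy chain, read 173.2 and 276.7 against 197.6 and 251.4, with the knockouts inside the range of the controls (0.02, 95% interval -0.60 to 0.64).

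Heavy chains of the outer arm other than Dnah9 gave little signal. Dnah5, mutated in many patients with primary ciliary dyskinesia, read 35.4 and 158.8 in controls and 106.1 and 90.4 in knockouts. Dnah11 read 133.7 and 29.5 in controls and 162 and 78 in knockouts. In both genes the groups overlapped. The heavy chains Dnah8, Dnah12 and Dnah17, the second of which belongs to the inner arms, were also under the filter on all their probe sets, and second probe sets of Dnah1, Dnah2 and Dnah9 were too. At 2 of the 9 heavy-chain probe sets under the filter both knockouts read below both controls. That pattern was seen at 20.4% of all probe sets under the filter. The 2 were Dnah2 at 1454103_at (108.4 and 141.3 against 82.6 and 13.1) and Dnah8 at 1425692_a_at (53.2 and 63.1 against 16.5 and 46.1).

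Of the 4 probe sets of the outer-arm intermediate chains, 1 was tested, and it rose. Dnaic2 read 128.9 and 81.7 in controls and 200 and 338.8 in knockouts at 1436296_x_at, where the groups were separate and the knockout arrays spread widely (log2 change 1.22 ± 0.34, limma adjusted p = 0.0251). The call was lost without control 2 (0.93, adjusted p = 0.0516), without the variance trend (adjusted p = 0.0649) and without the filter (adjusted p = 0.0919). With either knockout array left out, it was not tested. An identifier with x marks probes that can detect related transcripts, and the other Dnaic2 probe set, 1445408_at, went the other way, with 112.6 and 59.3 in controls and 14 and 18.4 in knockouts, under the filter. Dnaic1 was under the filter at both probe sets, with 79.5 and 152.5 in controls and 167 and 199.6 in knockouts at the brighter, where the knockouts lay above the controls, as they did at the dimmer, a pattern seen at 16.7% of all probe sets under the filter. Dnali1, the light intermediate chain of inner arms, was under the filter too, with 99.6 and 155.9 in controls and 204.1 and 137.2 in knockouts at its brighter probe set, where the groups overlapped.

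Radial spoke genes rose at 2 of 4 tested probe sets, where 11.7% of all tested rose, and 3 more lay under the filter. Rsph1, a protein of the spoke head, read 265.9 and 224.3 in controls and 599.6 and 722.6 in knockouts. The arrays of each group were closer to each other than to the other group, and the log2 change was 1.37 ± 0.19 (SE; 95% interval 0.95 to 1.79; limma adjusted p = 0.000829). The change ranged from 1.24 to 1.5 with single arrays left out and kept its call each time. Rsph9, another head protein, read 575.3 and 612.3 in controls and 922.6 and 907.3 in knockouts, with tight groups apart from each other (0.61 ± 0.14, limma adjusted p = 0.0109). Its adjusted p was 0.0742 when knockout 1 was left out (0.60) and 0.0641 when knockout 2 was (0.62).

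The remaining spoke genes did not pass or could not be tested. Rsph3a, a protein of the spoke stalk, read 165.9 and 204.3 in controls and 310.1 and 253 in knockouts (log2 change 0.57, limma adjusted p = 0.123). Rsph4a, a head protein, read 193.2 and 200.1 in controls and 231.1 and 254.2 in knockouts (0.28, limma adjusted p = 0.426). The groups were separate at both. Rsph14 and Rsph6a lay under the filter, and at Rsph14 both knockouts (31 and 17.9) read below both controls (111.6 and 49.2).

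**Figure D3:**
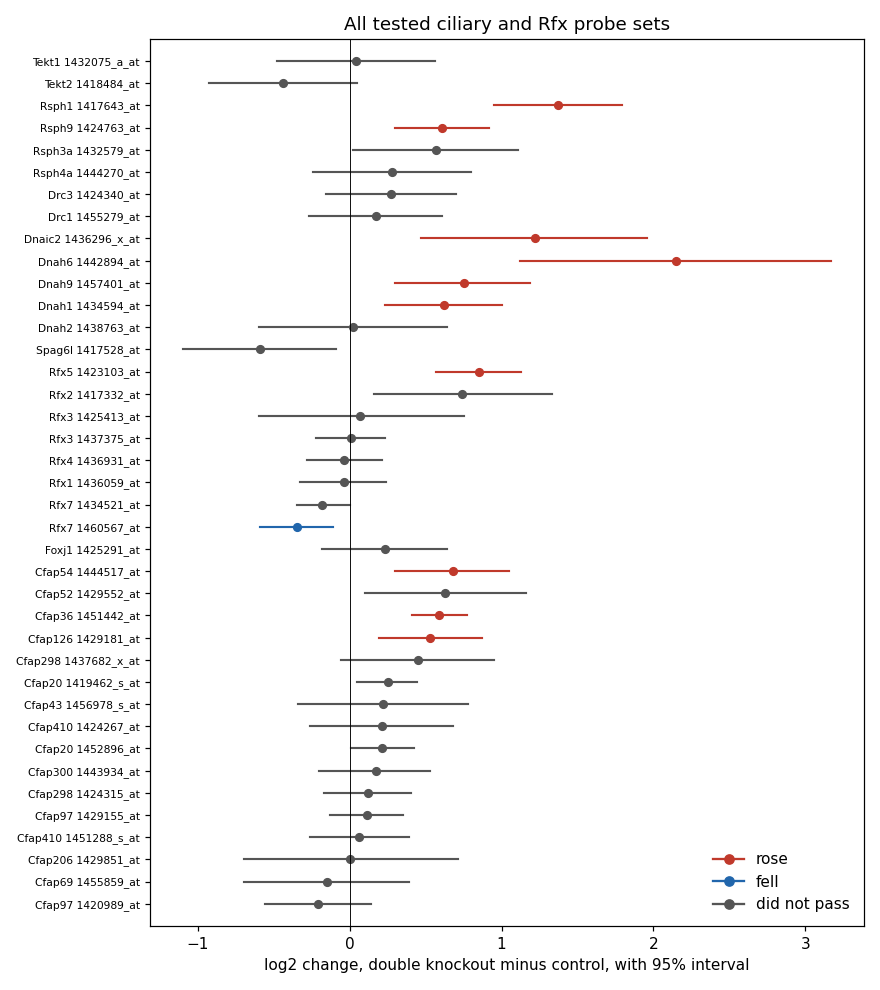
Log2 change, double knockout minus control, with its 95% interval for each of the 39 tested probe sets (y axis), grouped by family. Red points rose, the blue point fell and grey points did not pass. The intervals of all 10 red points lie above 0, which the call itself requires. That of Dnah6 is the widest, from 1.12 to 3.17, and that of Foxj1 spans 0.

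Cfap genes were the most numerous, with 23 genes and 40 probe sets. Of the 16 tested, 3 rose and 13 did not pass, where 11.7% of all tested probe sets rose. Their log2 changes ran from -0.21 to 0.68, with a median of 0.21. Cfap36, a partner of the ciliary GTPase Arl3, read 4560.3 and 4853.1 in controls and 7117.8 and 7042.2 in knockouts. The 2 knockout arrays were almost equal and lay well above the controls (log2 change 0.59 ± 0.08, limma adjusted p = 0.000814). This call held in every alternative run, with changes of 0.54 to 0.63 when single arrays were left out.

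Cfap54, a protein of the central apparatus, read 389.2 and 451 in controls and 737.2 and 626.8 in knockouts (log2 change 0.68 ± 0.17, limma adjusted p = 0.0165). Cfap126 (Flattop), a protein of basal bodies and axonemal microtubules, read 830.4 and 642.9 in controls and 1026.4 and 1102.9 in knockouts (0.53 ± 0.15, limma adjusted p = 0.031). The groups were separate at both genes. Cfap54 no longer passed when control 1 (0.58, adjusted p = 0.0509), knockout 1 (0.56, adjusted p = 0.134) or knockout 2 was left out (0.79, adjusted p = 0.0535). Cfap126 no longer passed when control 2 (0.35, adjusted p = 0.165), knockout 1 (0.58, adjusted p = 0.112) or knockout 2 was left out (0.48, adjusted p = 0.169), nor without the variance trend (adjusted p = 0.0891) or the filter (adjusted p = 0.0744).

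Of the tested Cfap genes that did not pass, Cfap52 and 1 probe set of Cfap20 came closest to the threshold. Cfap52, a protein of the microtubule inner junction, read 294.7 and 189.8 in controls and 382.2 and 370.8 in knockouts (log2 change 0.63, limma adjusted p = 0.0816), and the change was 0.93 without control 1 (adjusted p = 0.0134) and 0.34 without control 2 (adjusted p = 0.372). Cfap20, also of the inner junction, had changes of 0.25 and 0.21 at its pair of probe sets (limma adjusted p = 0.071 and 0.129), with the groups separate at both. Cfap298, a dynein assembly factor, read 903.9 and 923.8 in controls and 921.7 and 1696.5 in knockouts at 1437682_x_at. There knockout 2 stood alone, and without knockout 1 the change was 0.88 (adjusted p = 0.0163) and without knockout 2 it was 0.01, whereas its probe set 1424315_at read 941.5 to 1094.5 over all arrays (log2 change 0.12).

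The other tested Cfap genes, Cfap43, Cfap69, Cfap97, Cfap206, Cfap300 and Cfap410, had log2 changes between -0.21 and 0.22. Cfap97 had changes of opposite sign at its 2 tested probe sets (0.11 and -0.21). Of the 24 Cfap probe sets under the filter, 6 had both knockout arrays above both controls and 1 had both below, against 16.7% and 20.4% of all probe sets under the filter. The 1 below was Cfap97 at 1450076_at, with 179.7 and 95.6 in controls and 87.7 and 35.5 in knockouts. Cfap53, needed for left-right asymmetry, read 63.8 and 78.2 in controls and 227.6 and 176.3 in knockouts. Cfap57 read 99.4 and 88.1 in controls and 160.5 and 131.6 in knockouts at 1 probe set and pointed the same way at the other. The rest of these 6 were Cfap61, Cfap221 and Cfap299.

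None of the tested Drc, Spag and Tekt probe sets passed in limma (0 of 5, and 1 had an unadjusted p under 0.05), and most Spag probe sets were too dim to test. Drc1, a scaffold of the nexin-dynein regulatory complex, read 338.2 and 314.9 in controls and 333.8 and 409 in knockouts, with overlap (log2 change 0.17). Drc3, of the same complex, had a change of 0.27 at its tested probe set. Spag6l, a central-pair protein, pointed down, from 292.7 and 357.4 to 228.7 and 190.8, with separate groups (log2 change -0.59 ± 0.23, limma adjusted p = 0.0871). Spag6, Spag16 and Spag17 were under the filter at every probe set.

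Tekt2, a filament-forming protein of the axonemal microtubules, read 352.4 and 282.2 in controls and 227.9 and 229.5 in knockouts (log2 change -0.44, limma adjusted p = 0.182). Tekt1 read 211.3 and 273.9 in controls and 241.2 and 253.2 in knockouts, with the knockouts inside the control range (0.04). Tekt3, Tekt4 and Tekt5 were under the filter and their groups overlapped. Tekt2 and Tekt4 carry the same kind of facing motif as Dnah6 and Dnaic2 in the stretches shown above.

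Over the whole group, 57 probe sets lay under the filter, with single signals from 1.4 to 247.8, and no probe set of 26 genes was tested. The groups overlapped at 41 of the 57. Both knockouts read above both controls at 10 (17.5%) and below at 6 (10.5%), against 16.7% and 20.4% of all probe sets under the filter. The count above was near the background, and dim probe sets of this kind carry little information about a change.

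Foxj1, the transcription factor that commits cells to motile ciliogenesis, did not pass. It read 361.2 and 371.7 in controls and 392.2 and 476.2 in knockouts. Both knockouts were above the controls, knockout 1 by a small margin (log2 change 0.23 ± 0.18; 95% interval -0.18 to 0.64; limma adjusted p = 0.408). A rise of up to 0.64 on the log2 scale therefore lies within the interval.

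Of the Rfx factors, Rfx5 rose, Rfx7 fell at 1 of 2 probe sets and Rfx1, Rfx2, Rfx3 and Rfx4 did not pass. Rfx5, which controls MHC class II genes rather than cilia, read 959.2 and 1026.2 in controls and 1952.3 and 1672.1 in knockouts. The groups were far apart (log2 change 0.85 ± 0.13; 95% interval 0.57 to 1.13; limma adjusted p = 0.00119), and the call held in every alternative run. Microglia and macrophages, which include antigen-presenting cells, moved with it: all 8 of their markers rose, and their summed signal was 5895 and 6801 in controls and 22016 and 20042 in knockouts. The part of these cells in the Rfx5 result was not tested.

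Rfx2, a ciliogenic factor, read 136.2 and 131.5 in controls and 256.7 and 214.8 in knockouts at 1417332_at, where the groups were separate (log2 change 0.74 ± 0.26, limma adjusted p = 0.0671). Its control mean lay under the filter signal. It passed after median centring (0.79, adjusted p = 0.0426) and without the variance trend (adjusted p = 0.0332). Of its dimmer probe sets, 1433416_at (23 and 42.6 against 68.5 and 57.2) kept the groups separate, while 1442578_at (160.5 and 96.8 against 247.8 and 125.8) and 1433415_at (33.3 and 15.5 against 55.5 and 18.3) did not.

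Rfx3, which acts in ciliogenesis in the developing brain, read 4220.5 and 4269.9 in controls and 3910.1 and 4646.3 in knockouts at 1437375_at. The knockouts lay on either side of the controls (log2 change 0.01, 95% interval -0.22 to 0.23). Its dimmer probe set, 1425413_at, read 188 and 145.6 in controls and 139.2 and 218.2 in knockouts (0.07, 95% interval -0.60 to 0.75). Rfx4, a factor of neural progenitors, read 1647.9 and 1584.4 in controls and 1592 and 1556.8 in knockouts at 1436931_at (-0.04, 95% interval -0.28 to 0.21), and 15.6 and 26.8 against 21.8 and 38.2 at 1432053_at, under the filter. Rfx1 read 1348.5 and 1133.7 against 1195.8 and 1200.4 at 1436059_at (-0.04, 95% interval -0.33 to 0.24) and 170.4 and 161.4 against 153.5 and 112.3 at 1422109_at, under the filter.

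Rfx7, a relative of Rfx5 in the DNA-binding domain, read 4488.4 and 3680.9 in controls and 3201.8 and 3189.6 in knockouts at 1460567_at. The knockouts were nearly equal, and the change was -0.35 ± 0.11 (limma adjusted p = 0.0428). At 1434521_at, which had the higher mean, it read 6187 and 6391.5 in controls and 5686.7 and 5440.6 in knockouts and did not pass (-0.18, limma adjusted p = 0.139). The call at 1460567_at ended when control 1 (-0.20, adjusted p = 0.333), knockout 1 (-0.35, adjusted p = 0.148) or knockout 2 was left out (-0.34, adjusted p = 0.15). It was also lost after quantile normalization (adjusted p = 0.0526), after median centring (-0.30, adjusted p = 0.0971), without the variance trend (adjusted p = 0.157) and without the filter (adjusted p = 0.091).

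Read once per gene at the brightest tested probe set, 10 of 33 member genes rose (30.3%), 0 fell and 23 did not pass by limma, and 1, Spag6l, had an unadjusted p under 0.05 with a negative change. Of all 12489 genes, 16.3% rose and 11% fell. The 33 genes passed the same filter, Dnah6 and Dnaic2 through their knockout signals. The count over them therefore supports nothing about the whole group either. With no filter, 6 of 59 member genes rose (10.2%), against 7.85% of all genes, a share near the background. Without knockout 1, 4 of 30 member genes rose (13.3%, against 7.66% of all genes in that fit). Without knockout 2, 3 of 31 rose (9.68%, against 9.09%), a share near the background. Without knockout 2 they were Cfap36, Rfx5 and Rsph1, and without knockout 1 Cfap298 joined these 3. The median log2 change was 0.25 for the 33 genes and 0.06 for all genes, and 0.09 and 0.06 without knockout 2.

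Other ciliary genes and, for comparison, cytoplasmic dynein genes were read from 5 lists that share no gene with the members. Over the 95 genes tested in these lists, 16 rose (16.8%) and 1 fell, close to the share of all genes that rose. Of these, 3 that rose and the 1 that fell stood in the cytoplasmic dynein list, included for comparison. Without control 1, 12 rose (12.5%, against 12.3% of all genes in that fit), and without control 2, 9 rose (9.47%, against 13.7%). Without knockout 1 or knockout 2, 5 rose each time (5.26%, against 7.66% and 9.09%). The lists were chosen with earlier results of these data known.

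Of 20 tested genes of other axonemal parts, 5 rose (25%) and 0 fell by limma, against 16.3% and 11% of all genes. In this list 2 negative changes had an unadjusted p under 0.05 in limma. The median log2 change was 0.35, against 0.06 for all genes. Meig1, needed for sperm formation, rose from 161.5 and 177.8 to 356.8 and 311.7 (0.91). Mns1, a protein inside axonemal microtubules, rose from 419.4 and 415.2 to 695.7 and 718.3 (0.74). Dynlrb2, a dynein light chain (0.61), Pifo (0.61) and Tppp3, a tubulin-binding protein (0.37), also rose. None of the 5 passed without knockout 1 or without knockout 2, where 0 genes of the list rose. Hydin, a central-pair protein, lay under the filter, with 161.1 and 57.3 in controls and 47.4 and 112.5 in knockouts.

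None of 5 tested dynein preassembly factors, which fold dynein arms in the cytoplasm, rose or fell by limma, and 0 had an unadjusted p under 0.05. Of 8 tested regulators of multiciliation, 1 rose (12.5%) and 0 fell by limma, against 16.3% and 11% of all genes. It was Gmnn (geminin), an inhibitor of replication licensing, with a log2 change of 0.38, and its call ended when control 2 or either knockout array was left out, without the filter and without the variance trend. Trp73, a factor upstream of multiciliation, read 454.7 and 654.6 in controls and 428.2 and 486.7 in knockouts (-0.25), and Myb and Deup1 did not pass either.

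Genes of primary cilia and intraflagellar transport were bright, and 53 of 54 were tested. Of these, 7 rose (13.2%) and 0 fell by limma, against 16.3% and 11% of all genes, so the share that rose was not above the background. In this list 2 negative changes had an unadjusted p under 0.05 in limma. The median log2 change was 0.10, against 0.06 for all genes. B9d1, of the transition zone at the ciliary base, rose from 1068.2 and 933.9 to 1870.6 and 1677.6 (0.82). Ift80, of the transport trains, rose by 0.60 and Ttc8, of the BBSome, by 0.59. The count that rose was lower with any single array left out, as was the share of all genes that rose.

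Among 9 cytoplasmic dynein genes, which carry cargo in the cell body and axon, 3 rose (33.3%) and 1 fell (11.1%). Of all genes 16.3% rose and 11% fell, and the median log2 change of the 9 was 0. The neuronal intermediate chain Dync1i1 rose from 1784 and 2093.3 to 4015 and 4155.2 (1.07), and the light chains Dynlt3 (0.75) and Dynlrb1 (0.23) rose. The broadly expressed intermediate chain Dync1i2 fell from 11146.1 and 12244.6 to 8866.3 and 9248.4 (-0.37). That call was lost without control 2, and also without the variance trend.

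**Figure D4:**
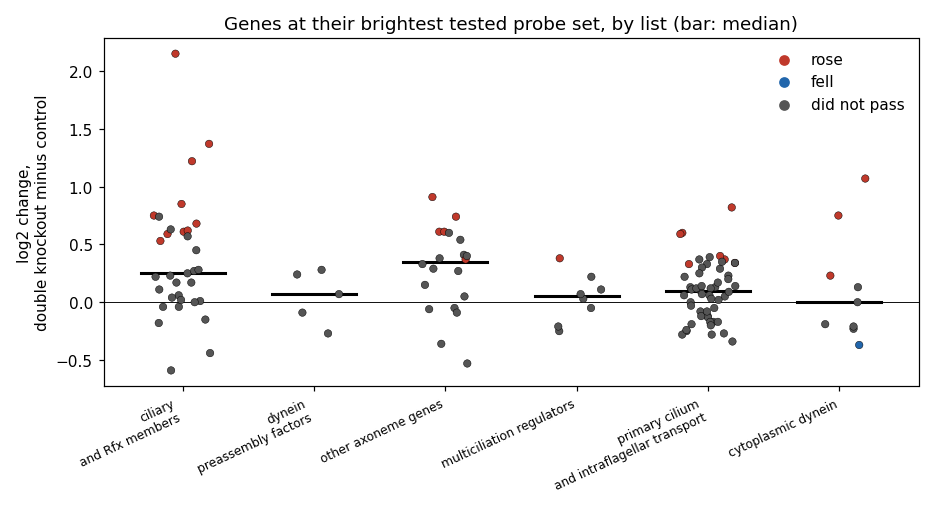
Log2 change, double knockout minus control (y axis), of each tested gene at its brightest tested probe set, for the 33 member genes and the 5 other ciliary and dynein lists. Black bars are medians, red points rose, blue points fell and grey points did not pass, and sideways placement within a list has no meaning. The medians run from 0 for cytoplasmic dynein to 0.35 for other axoneme genes, with 0.25 for the members.

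Markers of cells that carry motile cilia were read beside the members. Over all genes at their brightest tested probe set, 16.3% rose and 11% fell. Of 5 tested ependymal markers 4 rose, and the summed signal of all 8 on the array was 3201 and 3018 in controls and 4550 and 4400 in knockouts. These 4 were Cfap126, itself a member, Dynlrb2 and Tppp3, which also stand in the axoneme list, and Fam183b, also named Cfap144. Mia, the tested marker outside these ciliary genes, did not pass (0.33, limma adjusted p = 0.238). The markers Ccdc153 (8.5 to 13 over the arrays), Tmem212 (17.6 to 90.6) and Rarres2 (88.6 to 153.3) lay under the filter. Of 11 tested choroid plexus markers 4 rose, 1 fell and 6 did not pass, with summed signals of 48397 and 47829 in controls and 54841 and 51373 in knockouts. Folr1 (0.57), Car12 (0.57), Clic6 (0.48) and Kcne2 (0.43) rose, Otx2 fell (-0.51), and Ttr, by far the largest term of the sum, did not pass (0.14). Kl, Tmem72 and F5 lay under the filter. The floor plate also expresses Foxj1. Of 9 tested markers of the floor plate and the roof plate, Foxa1 (-1.25) and Foxa2 (-1.07) fell and Rspo1 rose (0.70). Other cell types moved as well: 6 of 8 neuronal markers fell and 1 rose, with summed signals of 128168 and 133712 in controls and 98576 and 95994 in knockouts. Markers that rose numbered 3 of 8 for radial glia, 3 of 4 for endothelium, 3 of 5 for mesenchyme and 0 of 4 for erythroid cells (0 of the 4 at an unadjusted p under 0.05 in limma), and none of these fell. The part of any of these cell types in the results for the members was not tested.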

How the data were processed

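The authors deposited probe set intensity values on a linear scale, made with MAS5 5.0 per the submitters' processing notes. Each array had a mean of 1000 after trimming 2% at either end, a scaling that removes any shift shared by most transcripts. No source used here names a genome build, and coordinates are those of the RefSeq promoter table. Groups and replicate numbers came from the sample titles. Of 45101 probe sets 64 were array controls, and of the rest 34945 had 1 symbol, 932 several and 9160 none in the platform annotation.

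Signals were taken as log2(signal + 16), so the log2 changes of dim genes are understated. Probe sets with a mean above the 40th percentile (7.41) were fitted in limma 3.58.1 (R 4.3.3) with a variance trend, knockout minus control, and Benjamini-Hochberg adjustment over all 27022, at an adjusted p under 0.05. Adjusted p-values come from this limma fit unless a sentence names another setting. The fit had 2 residual degrees of freedom and a prior of 8.33. The number of arrays limits the precision, and a low signal is not called absent. Of the steps, the limma fit was tested on simulated signals, drawn around the real means with the spread estimated in that fit. Values in every array are given for members past the threshold, Foxj1, all Rfx probe sets and the brightest of each family, and other members named singly were chosen after their values were seen. Of each other list, up to 3 rises and 3 falls are named, besides genes named after their values were seen. The rule for the members used gene symbols only, but it and the lists were set with earlier results of these data known. Alternatives were quantile normalization, median centring, pseudocounts 1 and 64, no filter, the 60th percentile, no trend, a robust prior, a threshold of 0.1, each array left out, a block for the replicate number, and averaging the probe sets of a gene.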

Additional observations from a re-analysis of the deposited data

How the results depend on the processing

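No tested member changed sign past the threshold under any of 14 settings. Of the 11 calls, 3 were kept wherever tested (Cfap36, Rfx5 and Rsph1). The member probe sets that rose numbered 6 of 96 without the filter, where 4.82% of all rose. At the 60th percentile they numbered 6 of 20, where 16.2% of all rose. Those that fell numbered 0 after quantile normalization, median centring, no filter or no trend, against 4.77% to 11.4% of all. At a threshold of 0.1 they numbered 2 of 39, against 15.6% of all. Leaving out single arrays gave 3 to 9 that rose and 0 to 1 that fell, while the share of all probe sets that rose also fell, to 9.31% and 9.66% with control 1 or 2 removed and to 5.4% and 6.34% with knockout 1 or 2 removed. Member genes that rose numbered 6 without the filter (10.2%, against 7.85% of all genes) and 6 at the 60th percentile (40%, against 19.5%). Of member genes 1 fell at the threshold of 0.1, where 14.3% of all genes fell, and 1 with probe sets averaged. Listed ciliary genes that rose numbered 8 without the filter, 6 without the trend and 5 to 12 with arrays left out. Listed genes that fell numbered 3 of 95 after quantile normalization and 4 of 76 at the 60th percentile, against 11.1% and 13.8% of all genes. Without the trend 0 of 95 fell, against 5.2%. With the robust prior 3 of 95 fell, against 11.5%, and at the threshold of 0.1 5 of 95 fell, against 14.3%. With the replicate block 10 member probe sets rose and 1 fell, as without it. In that fit 3 of 95 listed genes fell, against 11.8% of all genes. The difference between the 2 controls was uncorrelated with that between the 2 knockouts (r = 0.003 across tested probe sets). With 1 difference per group this cannot show whether arrays of the same number were paired, and the labels name no pairing. Median centring moved the share of all probe sets that rose from 11.7% to 13.2%, and member probe sets that rose from 10 to 13. With 2 arrays per group, and 57 of 96 probe sets under the filter, small changes of dim genes were not detectable.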
